A study of Homo sapiens with 12 samples.

Results

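The genes described here make, break down and control the polyamines putrescine, spermidine and spermine in a human cell line of acute myeloid leukemia, MOLM-14. They were ODC1, SRM, SMS and AMD1 for synthesis, SAT1, SMOX and PAOX for breakdown, and OAZ1, OAZ2 and AZIN1 for the control of ornithine decarboxylase. All 10 were matched by symbol to a gene identifier in both count tables, which hold 61906 genes each. The expression filter kept 9 of the 10 in each comparison, and PAOX had too few reads to be tested.

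Polyamines are small positively charged molecules that bind RNA, DNA and chromatin, and dividing cells need them. Ornithine decarboxylase, the product of ODC1, makes putrescine from ornithine. Aminopropyl groups prepared by the AMD1 enzyme are then added to give spermidine and spermine. Breakdown runs backwards through acetylation and oxidation, and antizymes bind ornithine decarboxylase, deliver it to the proteasome and slow polyamine uptake.

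The study made 12 RNA-seq libraries in 2 experiments. Its knockdown experiment set cells with a lentiviral shRNA against the RNA helicase DDX5 (shDDX5) against cells with a control shRNA (shControl), 96 hours after infection. Its drug experiment set 100 nM RX-5902, a compound aimed at DDX5 phosphorylated on a tyrosine, against 0.1% DMSO, 6 hours after addition. There were 3 libraries in each of the 4 groups, and the labels name them biological replicates. The p-values set each change against the spread between replicates, and the sample titles do not say how the replicates were separated. All libraries came from the same cell line, the labels name a single shRNA against DDX5 without a rescue, and the shControl and DMSO cells differ in infection and in time. The experiments share no library. A gene is called here when its adjusted p in edgeR's quasi-likelihood test, with Benjamini-Hochberg adjustment over all genes tested, is under 0.05.

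Total counts per library ran from 17603589 to 20367575. DDX5 itself stood at 755, 718 and 730 CPM (read counts scaled to library size with TMM factors) in shControl and at 159, 164 and 161 in shDDX5. It rose by 0.31 on the log2 scale with RX-5902 (edgeR SE 0.04, adjusted p = 1.47e-08), a change not called against 1.2-fold (edgeR adjusted p = 0.104). All 8 myeloid marker genes had reads in every group, and markers of T cells, B cells, erythroid cells, epithelium and fibroblasts summed to at most 7.44 CPM a list in any library. Library shDDX5 replicate 1 stood apart from replicates 2 and 3. Its values were higher by a median of 0.29 (log2) for the fifth of genes with the shortest summed exon length. They were lower by 0.31 for the fifth with the longest. All 9 tested polyamine genes were higher in that library than in the mean of the other two shDDX5 libraries, by 0.11 for AMD1 to 0.62 for SRM. The mitochondrial share of the counts was 10.3% in that library, 8.09 and 7.71% in the other shDDX5 libraries and 6.17 to 7.75% in shControl, and its part in the knockdown changes was not tested. Knockdown changes of the polyamine genes are therefore also given without replicate 1. Because RNA came from whole cultures, a change in every cell and a change in the share of cells that express a gene cannot be told apart.

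In the knockdown experiment 7 of the 9 tested polyamine genes were called, at a background of 56.7% of 14463 tested genes (28.4% higher and 28.3% lower): SAT1 and SMOX rose, and ODC1, SMS, AMD1, OAZ1 and OAZ2 fell. With RX-5902 all 9 were called, at a background of 64.1% of 13941 genes (32.2% higher and 31.9% lower): SAT1, SMOX, OAZ2 and AZIN1 rose, and ODC1, SRM, SMS, AMD1 and OAZ1 fell. The median log2 change of the 9 was -0.32 after knockdown and -0.17 with RX-5902, beside all-gene medians of -0.00 and 0.01. At 2-fold or more, ODC1 and OAZ1 fell and SAT1 and SMOX rose after knockdown, where 10.3% of all tested genes fell and 10.8% rose by as much. ODC1 and SRM fell by at least 2-fold with RX-5902, where 3.57% of all tested genes did, and none of the 9 rose by as much, where 5.16% of all tested genes did. Tested against a change of 1.2-fold, only ODC1, SRM and SAT1 were called with RX-5902, and for the other 6 a change beyond that size was not shown. The control and treated libraries did not overlap for 8 of the 9 genes in the knockdown experiment and for 9 of 9 in the RX-5902 experiment, against 66.1% and 67.4% of all tested genes. With backgrounds this high, the count of called members says little about the polyamine genes as a group, and the results are in the individual genes.

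**Figure D1:**
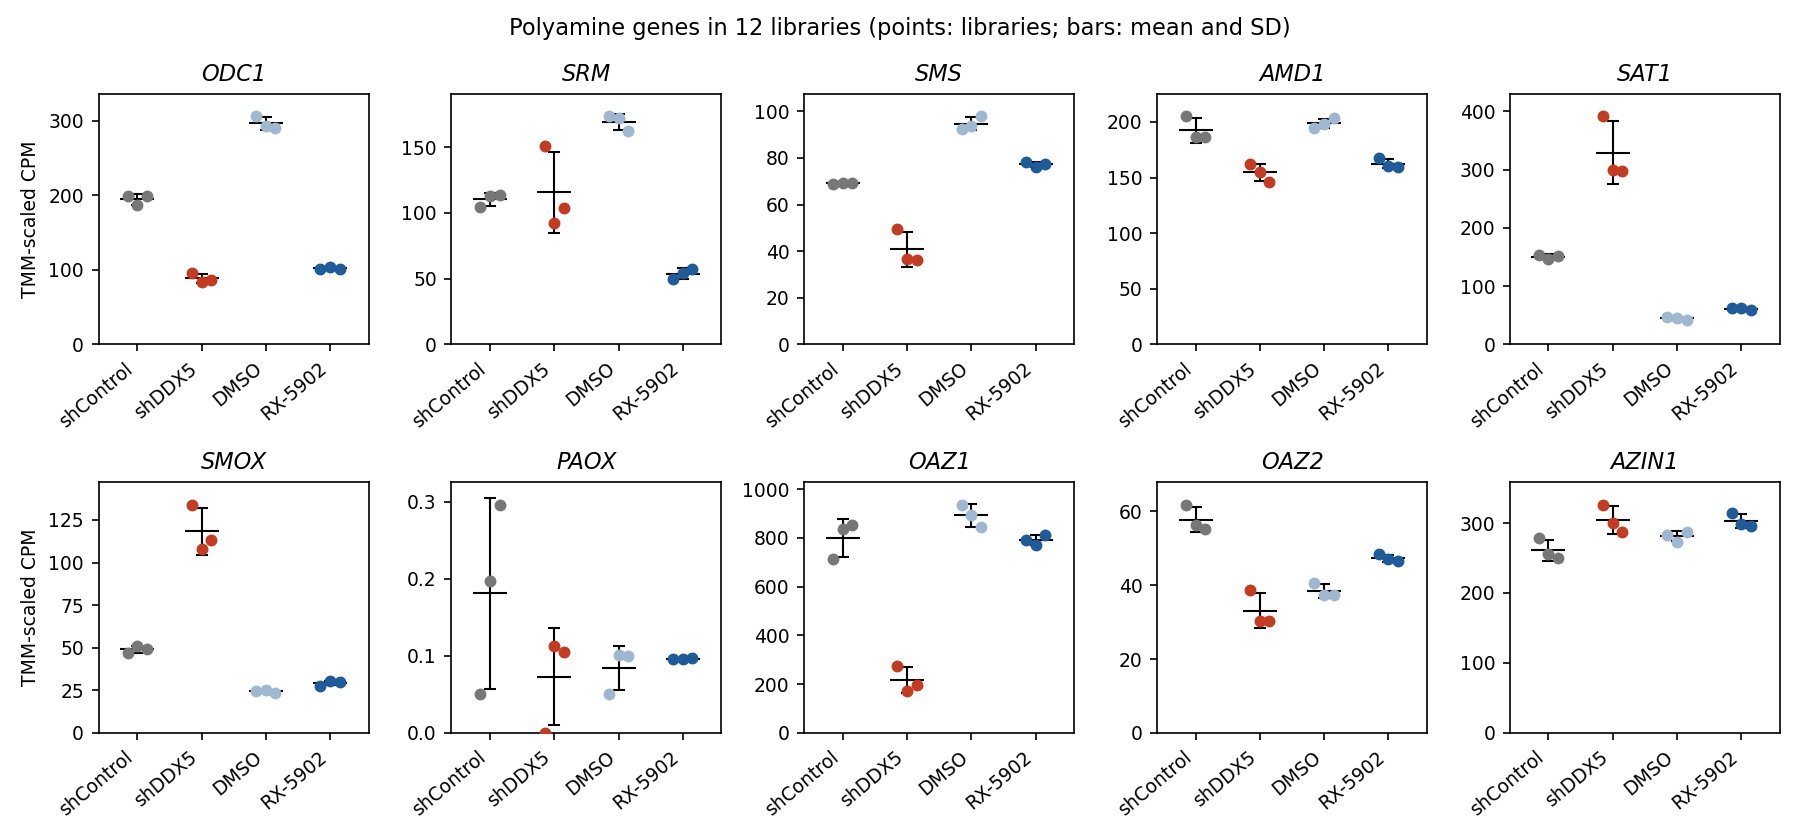
Scaled CPM (vertical axes, each starting at 0) of the 10 polyamine genes in the 12 libraries, with 3 points per group and bars for the mean and SD. ODC1 is lower in both treated groups, SAT1 and SMOX are higher in both, OAZ1 is lowest in shDDX5, and SRM is lowest in RX-5902, while PAOX stays under 0.3 CPM.

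ODC1, the enzyme that commits ornithine to polyamine synthesis (chr2:10439968-10448327, minus strand), was lower in both treated groups. It stood at 199, 186 and 198 CPM in shControl and at 95.6, 84.2 and 85.8 CPM in shDDX5. In the other experiment it stood at 306, 293 and 290 CPM with DMSO and at 102, 104 and 100.4 CPM with RX-5902. Every treated library lay far below every library of its own control. ODC1 fell by 1.14 on the log2 scale after knockdown (SE 0.09, edgeR adjusted p = 2.14e-05), which is 2.20-fold, and by 1.54 with RX-5902 (SE 0.04, edgeR adjusted p = 1.32e-25), which is 2.91-fold. Without shDDX5 replicate 1 the knockdown value was -1.20. The knockdown change minus the RX-5902 change was 0.39 (SE 0.10, edgeR adjusted p = 0.0039), so the fall was larger with RX-5902.

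SRM, the enzyme that makes spermidine (chr1:11054584-11060020, minus strand), separated the experiments. It stood at 105, 113 and 113 CPM in shControl and at 151, 92.3 and 104 CPM in shDDX5, and these groups overlapped. The DMSO libraries held 174, 172 and 162 CPM and the RX-5902 libraries 49.5, 54.2 and 57.5 CPM, with a wide gap between the groups. The knockdown change was 0.07 (SE 0.17, edgeR adjusted p = 0.760), and the RX-5902 change was -1.66 (SE 0.05, edgeR adjusted p = 1.98e-24), a 3.15-fold fall. The difference between the changes was 1.71 (SE 0.20, edgeR adjusted p = 7.66e-06). The SRM level in shDDX5 replicate 1 was above all 3 shControl libraries. Without that library SRM fell by 0.17 after knockdown (edgeR adjusted p = 0.00609), and the difference from RX-5902 was 1.47.

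ODC1 is a well-known target of the transcription factors MYC and MAX, which bind the letters CACGTG. The start-site windows of the polyamine genes were therefore searched for those letters, which read the same on both strands. The windows, from RefSeq on GRCh38.p14, run from 250 bases before to 50 bases after an annotated start, and 7 of the 10 genes had an entry. SRM held the letters once, beginning 199 bases before its start, and the downstream of the ODC1 starts held them at 29 bases before the start and at position 6 after it. The upstream ODC1 start and the windows of AMD1, SMS, SAT1, OAZ1 and OAZ2 did not hold them. Of 35116 windows 7.26% hold CACGTG, and of 27305 genes 8.77% have it in at least 1 window. The stretches around the matches are shown 5′ to 3′ on the minus strand, with CACGTG in capitals. They lie at chr1:11060192-11060237 for SRM and at chr2:10447988-10448061 for ODC1.
SRM: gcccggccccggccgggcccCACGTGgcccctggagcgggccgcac
ODC1: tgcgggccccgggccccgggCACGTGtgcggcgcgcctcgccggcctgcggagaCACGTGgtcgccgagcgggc
These matches describe sequence alone, since no binding was measured. SRM, which holds the letters, was not called after knockdown (0.07, edgeR adjusted p = 0.760). The RNA of MYC fell from 426 to 196 CPM after knockdown, a log2 change of -1.12 (SE 0.08, edgeR adjusted p = 1.89e-05), or -1.16 without shDDX5 replicate 1. With RX-5902 it fell from 616 to 152 CPM, by 2.02 on the log2 scale (SE 0.04, edgeR adjusted p = 8.73e-28), and the part of MYC in the polyamine genes was not tested. Its partner MAX rose by 0.44 after knockdown (edgeR adjusted p = 0.00748) and fell by 0.59 with RX-5902 (edgeR adjusted p = 1.75e-11).

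SMS, which makes spermine from spermidine (chrX:21940709-21994837, plus strand), fell in both experiments. It stood at 68.6, 69.2 and 69.4 CPM in shControl and at 49.4, 36.6 and 36.4 CPM in shDDX5. Its levels were 92.6, 93.8 and 97.9 CPM with DMSO and 78.2, 75.9 and 77.5 CPM with RX-5902. Neither pair of groups overlapped. SMS fell by 0.76 after knockdown (SE 0.13, edgeR adjusted p = 0.00119), or by 0.92 without shDDX5 replicate 1, and by 0.30 with RX-5902 (SE 0.04, edgeR adjusted p = 3.03e-07). The difference of -0.48 was called (SE 0.14, edgeR adjusted p = 0.0109), so of the aminopropyl transferases SRM changed more with RX-5902 and SMS more after knockdown.

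AMD1, whose enzyme decarboxylates S-adenosylmethionine to supply the aminopropyl groups (chr6:110874770-110898879, plus strand), fell by a small amount in both. It stood at 205, 186 and 186 CPM in shControl and at 162, 155 and 146 CPM in shDDX5, with no overlap. Its levels were 195, 198 and 203 CPM with DMSO and 167, 160.5 and 159.6 CPM with RX-5902, again with no overlap. The log2 change was -0.32 after knockdown (SE 0.08, edgeR adjusted p = 0.0127), or -0.35 without shDDX5 replicate 1, and -0.29 with RX-5902 (SE 0.04, edgeR adjusted p = 6.96e-08). The difference between them was -0.04 (SE 0.09, edgeR adjusted p = 0.724). The knockdown call was lost without shControl replicate 1 (-0.28, adjusted p = 0.0580), without shDDX5 replicate 3 (-0.27, adjusted p = 0.0566) and with a correction for gene length, which gave -0.15 (adjusted p = 0.286), all by edgeR.

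**Figure D2:**
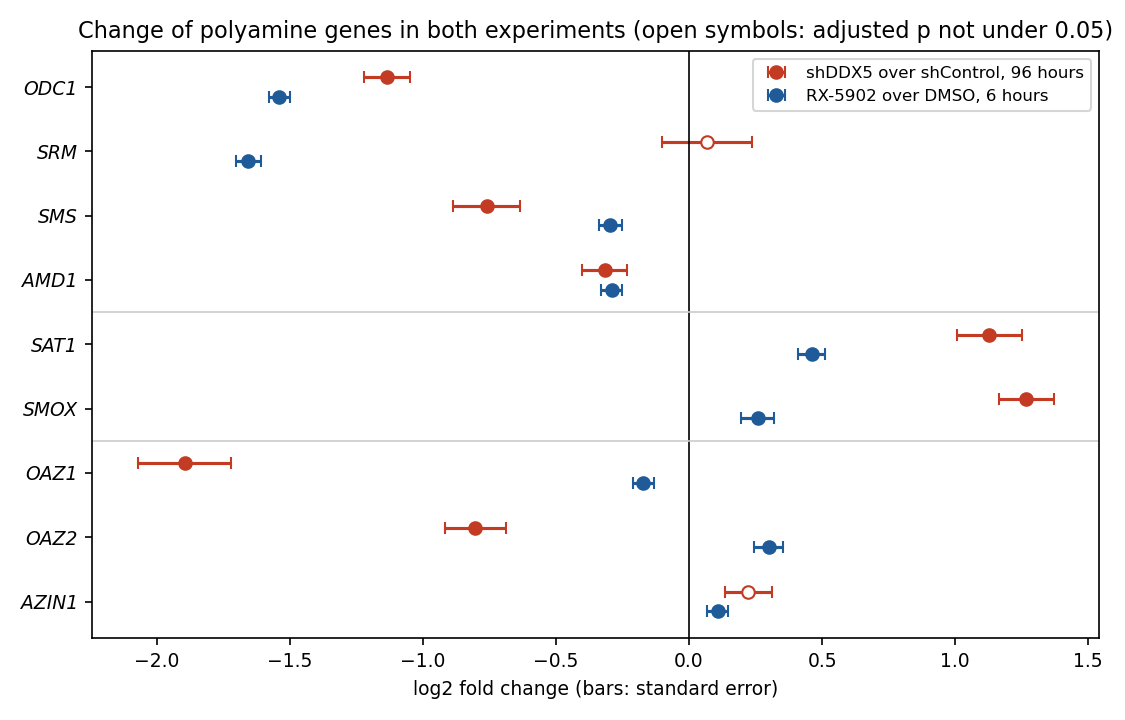
Log2 fold change (horizontal axis) of the 9 tested polyamine genes in each experiment, with bars for the standard error and open symbols for an adjusted p of 0.05 or more. The synthesis genes are at the top, the breakdown genes in the middle and the control genes at the bottom. The 2 symbols of a gene lie farthest apart for SRM and OAZ1. Those of OAZ2 and of SRM lie on opposite sides of 0, with the knockdown symbol of SRM open and close to 0.

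SAT1 and SMOX, the breakdown enzymes with enough reads to test, rose in both experiments and rose more after knockdown. SAT1 (chrX:23783173-23786210, plus strand) encodes the acetyltransferase that marks spermidine and spermine for oxidation or export. It stood at 154, 146 and 151 CPM in shControl and at 392, 299 and 297 CPM in shDDX5. Every shDDX5 library was above every shControl library, and replicate 1 was the highest. The rise was 1.13 (SE 0.12, edgeR adjusted p = 0.000116), which is 2.19-fold, and 0.98 without shDDX5 replicate 1. With DMSO the levels were 46.7, 44.7 and 42.4 CPM, and with RX-5902 they were 63.0, 62.8 and 58.4 CPM. The groups did not overlap, and the rise of 0.46 (SE 0.05, edgeR adjusted p = 1.81e-09), or 1.38-fold, was smaller than after knockdown by 0.65 (SE 0.14, edgeR adjusted p = 0.00168).

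SMOX, an oxidase that turns spermine back into spermidine and releases hydrogen peroxide (chr20:4120980-4187747, plus strand), stood at 47.0, 51.2 and 49.2 CPM in shControl. In shDDX5 it stood at 134, 108 and 113 CPM, above every control library. The DMSO levels were 24.4, 25.4 and 23.7 CPM and the RX-5902 levels 27.7, 30.4 and 29.8 CPM, a narrower gap with no overlap. SMOX rose by 1.27 after knockdown (SE 0.10, edgeR adjusted p = 2.81e-05), which is 2.41-fold, and by 1.17 without shDDX5 replicate 1. The RX-5902 rise was 0.26 (SE 0.06, edgeR adjusted p = 0.000509), and the difference of 0.99 was called (SE 0.12, edgeR adjusted p = 1.40e-05).

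Myeloid marker genes moved in the knockdown experiment too. The summed level of the 8 markers ran from 4161 to 4528 CPM in shControl and from 13357 to 14683 CPM in shDDX5, most of it from LYZ. Of the 8, 6 rose while PTPRC and FLT3 fell, where 28.4% of all tested genes rose and 28.3% fell. With RX-5902 the sum ran from 1437 to 1488 CPM, against 1384 to 1408 CPM with DMSO. There 4 of the 8 rose and 4 fell, where 32.2% of all tested genes rose and 31.9% fell. The part of this shift in the SAT1 and SMOX changes was not tested.

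PAOX, the peroxisomal oxidase that acts on acetylated polyamines (chr10:133379261-133391694, plus strand), had 1, 4 and 6 reads in shControl and 0, 2 and 2 in shDDX5. It had 1, 2 and 2 reads with DMSO and 2 in each RX-5902 library. A difference was not detectable from so few reads. The gene shares 1373 bases, 61.0% of its exon length, with another protein-coding gene on the same strand, which had 19 to 69 reads in a library. Reads in that stretch may not have been counted for either gene, so a low PAOX count is not shown to be a low RNA level.

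OAZ1, the main antizyme (chr19:2269509-2273490, plus strand), showed the largest knockdown change of the 9 genes. It stood at 712, 835 and 852 CPM in shControl and at 275, 173 and 197 CPM in shDDX5. The lowest control library was more than 2-fold above the highest shDDX5 library, which was replicate 1. OAZ1 fell by 1.90 after knockdown (SE 0.18, edgeR adjusted p = 5.52e-05), which is 3.72-fold, with -2.11 without that library. With DMSO it stood at 936, 896 and 845 CPM and with RX-5902 at 793, 770.0 and 811 CPM, close together but not overlapping. The RX-5902 change was -0.17 (SE 0.04, edgeR adjusted p = 0.000314), and it was not called against a change of 1.2-fold or in a joint fit of all 12 libraries (-0.14, edgeR adjusted p = 0.455). The difference between the experiments was -1.74 (SE 0.20, edgeR adjusted p = 5.15e-06). An opposite-strand gene, JSRP1, shares 6.87% of the OAZ1 exon length and had at most 23 reads in a library.

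OAZ2, a second antizyme gene (chr15:64687573-64703281, minus strand), changed in opposite directions. It stood at 61.8, 56.3 and 55.3 CPM in shControl and at 38.7, 30.3 and 30.4 CPM in shDDX5. In the other experiment the levels were 40.7, 37.3 and 37.4 CPM with DMSO and 48.3, 47.2 and 46.5 CPM with RX-5902. All shDDX5 libraries were below, and all RX-5902 libraries above, those of their own controls. OAZ2 fell by 0.80 after knockdown (SE 0.12, edgeR adjusted p = 0.000555), or by 0.93 without shDDX5 replicate 1, and rose by 0.30 with RX-5902 (SE 0.05, edgeR adjusted p = 1.08e-05). The difference was -1.12 (SE 0.13, edgeR adjusted p = 9.09e-06).

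Antizyme protein is made only when the ribosome shifts its reading frame at a stop codon inside the coding sequence, a step that polyamines favour. The site is shown for OAZ1 and OAZ2 because their RNA counts cannot show this step. In GENCODE release 29 on GRCh38 the coding sequence of each skips a single base, at position 2271443 of chromosome 19 for OAZ1 and at 64691515 of chromosome 15 for OAZ2. The 45 bases around it, at chr19:2271420-2271464 (plus strand) and chr15:64691494-64691538 (minus strand), are printed 5′ to 3′ with the codon before the stop and the stop TGA in capitals.
OAZ1: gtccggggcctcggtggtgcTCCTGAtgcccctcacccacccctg
OAZ2: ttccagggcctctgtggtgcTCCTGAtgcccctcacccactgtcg
The 2 stretches are identical at 38 of 45 bases (84.4%). Both lie in exons used for counting, and the counts give RNA abundance, not frameshifting or protein.

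AZIN1, an ornithine decarboxylase relative without enzyme activity that binds antizyme and so frees the enzyme (chr8:102826111-102893864, minus strand), had small changes in both experiments. It stood at 278, 256 and 249.6 CPM in shControl and at 326, 299.8 and 288 CPM in shDDX5. With DMSO it stood at 283, 273 and 288 CPM, and with RX-5902 at 315, 298 and 296 CPM. In scaled CPM the treated libraries were above the controls in both experiments, by a narrow margin. In the counts scaled by exon length given below, shControl (141.9 to 151.3) and shDDX5 (131.5 to 152.6) overlapped. The knockdown change of 0.22 was not called (SE 0.09, edgeR adjusted p = 0.0615). It was called without shDDX5 replicate 1, at 0.17 (edgeR adjusted p = 0.00252), and by DESeq2, at 0.23 (adjusted p = 0.0433). The RX-5902 rise of 0.11 (SE 0.04, edgeR adjusted p = 0.0157) lost its call when DMSO replicate 1 (adjusted p = 0.0522), DMSO replicate 2 (adjusted p = 0.168) or RX-5902 replicate 1 (adjusted p = 0.0751) was left out, by the same edgeR test. The difference between the experiments was 0.10 (SE 0.10, edgeR adjusted p = 0.440).

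The changes differed between the experiments for 7 of the 9 tested genes, at a background of 52.7% of 15386 genes (24.1% higher and 28.6% lower). The knockdown change was the higher for ODC1, SRM, SAT1 and SMOX and the lower for SMS, OAZ1 and OAZ2. For AMD1 and AZIN1 no difference was called.

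To compare genes with each other, counts were divided by exon length and scaled to the same sum in every library, as in TPM. In shControl, OAZ1 was highest at 796 ± 92.3 (SD, n = 3), within the top 0.563% of protein-coding genes. SAT1 (207), ODC1 (201) and SRM (199) followed, and neighbours in that order overlapped. AZIN1 (145), SMS (116), AMD1 (64.4), SMOX (57.0) and OAZ2 (25.7) came next, each separated from its neighbour, and PAOX was last at 0.277.

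In shDDX5 the per-length order was different. SAT1 was highest at 380 ± 9.11 (SD, n = 3). OAZ1 (178), SRM (173) and AZIN1 (144) followed with overlapping neighbours, then SMOX (115), ODC1 (77.3), SMS (57.6), AMD1 (43.9) and OAZ2 (12.4), with no overlap between neighbours. ODC1 thus stood above SMOX in shControl and below it in shDDX5.

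With DMSO, the per-length level of OAZ1 was 908 ± 36.0 (SD, n = 3), followed by ODC1 (313) and SRM (313), which overlapped. SMS (164) and AZIN1 (161) overlapped as well, and AMD1 (68.2), SAT1 (62.9), SMOX (29.1) and OAZ2 (17.5) came after. With RX-5902, OAZ1 remained first at 871 ± 4.25 (SD, n = 3). AZIN1 (187) and SMS (144) then stood above ODC1 (117) and SRM (107), which overlapped, and SAT1 (93.6), AMD1 (60.3), SMOX (37.6) and OAZ2 (23.3) followed. Between the control groups the place of SAT1 differed: it stood below ODC1, SRM, SMS, AZIN1 and AMD1 with DMSO, and above SMS, AZIN1 and AMD1 and beside ODC1 and SRM in shControl. The scaled levels were 146 to 154 CPM in shControl and 42.4 to 46.7 CPM with DMSO, from tables normalized separately, and were not tested.

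**Figure D3:**
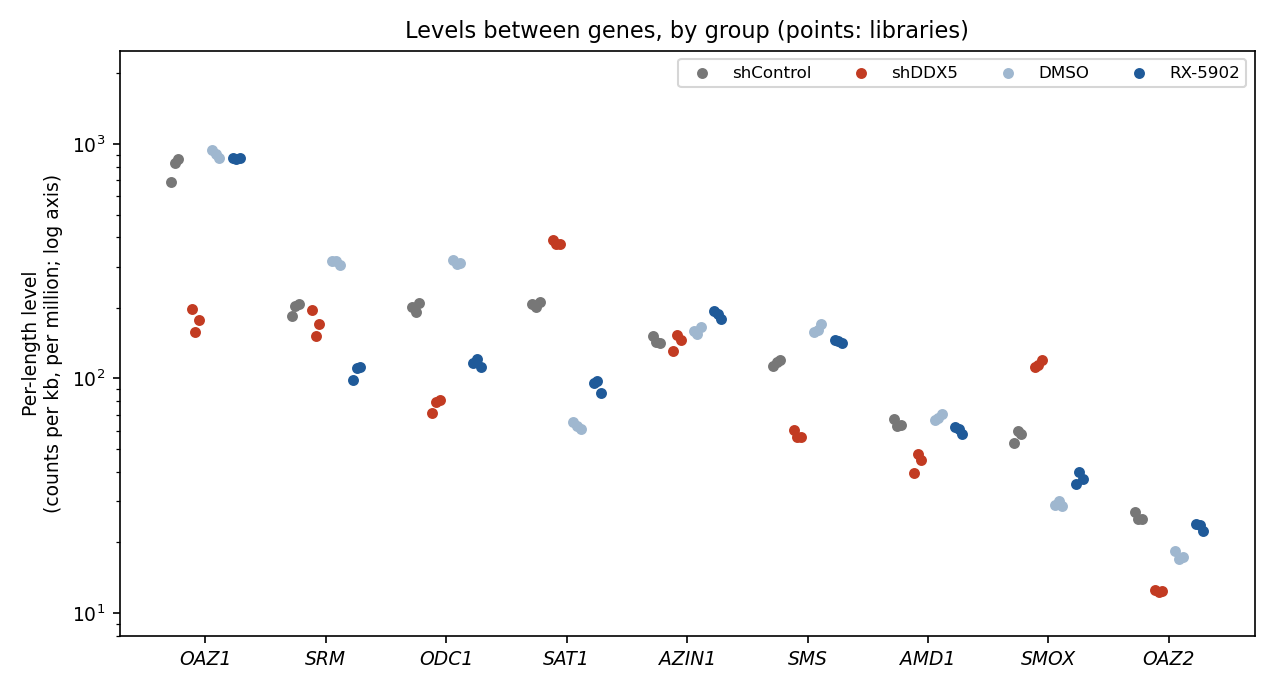
Per-length level (vertical log axis, counts per kilobase of exon, scaled to the same sum in every library) of the 9 tested polyamine genes, with 1 point per library and a color for each group. OAZ1 is highest in every group except shDDX5, where SAT1 is highest, and OAZ2 is lowest in all 4 groups.

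Ratios within a library do not depend on its scaling. The per-length ratio of SAT1 to ODC1 was 1.03, 1.05 and 1.02 in shControl and 5.45, 4.74 and 4.61 in shDDX5. It was 0.203, 0.204 and 0.195 with DMSO and 0.826, 0.808 and 0.774 with RX-5902. In both experiments SAT1 RNA stood higher relative to ODC1 in every treated library, from control means that were themselves far apart. The highest value was that of shDDX5 replicate 1.

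The OAZ1 to ODC1 ratio moved in opposite directions. It was 3.44, 4.31 and 4.14 in shControl and 2.77, 1.98 and 2.20 in shDDX5. The mean was 2.90 ± 0.0825 with DMSO (SD, n = 3), and the RX-5902 libraries had 7.52, 7.15 and 7.77. OAZ1 RNA per ODC1 RNA was thus lower in all shDDX5 libraries and higher in all RX-5902 libraries than in their controls.

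The AZIN1 to OAZ1 ratio was 0.219, 0.172 and 0.164 in shControl and 0.664, 0.970 and 0.820 in shDDX5. With DMSO it was 0.169, 0.171 and 0.191, and with RX-5902 it was 0.222, 0.217 and 0.205. It was higher in every treated library, by a wide margin only after knockdown. The SRM to SMS ratio was 1.71 ± 0.0686 in shControl and 3.00 ± 0.284 in shDDX5, and 1.91 ± 0.121 with DMSO and 0.745 ± 0.0605 with RX-5902 (SD, n = 3 each). These ratios describe the libraries and were not tested.

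**Figure D4:**
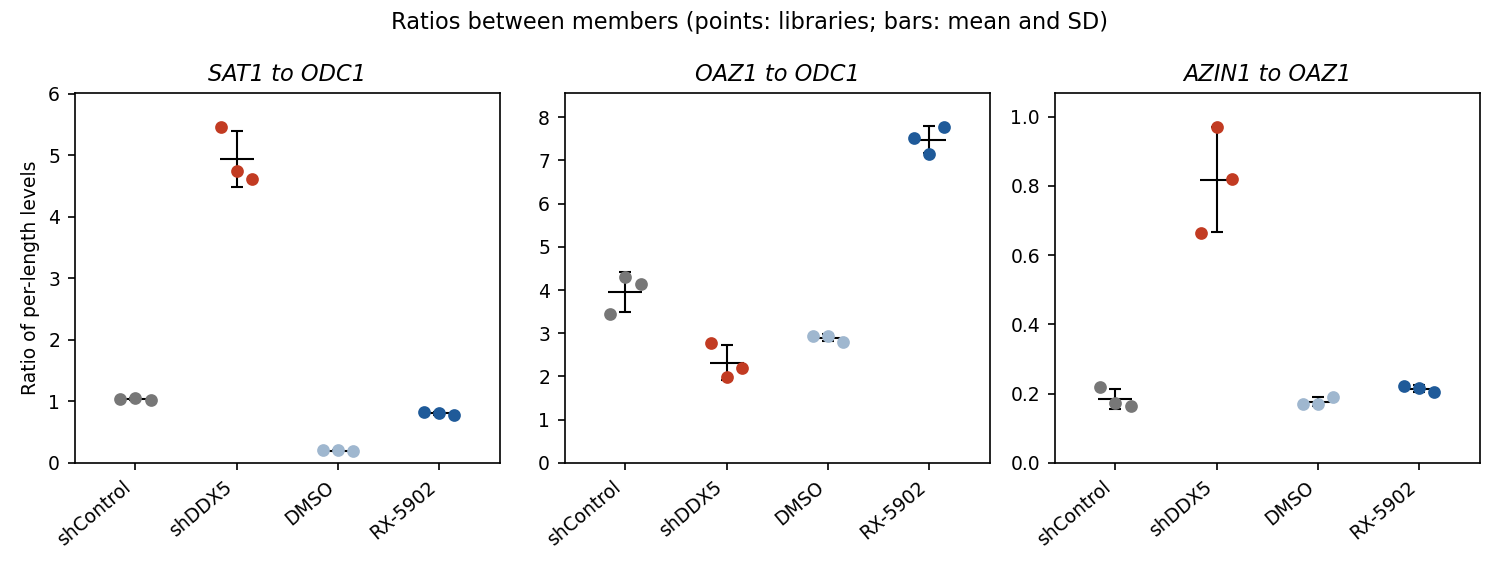
Ratio of per-length levels (vertical axes from 0) of SAT1 to ODC1, OAZ1 to ODC1 and AZIN1 to OAZ1, with 1 point per library and bars for the mean and SD. SAT1 to ODC1 reaches 4.93 on average in shDDX5, while OAZ1 to ODC1 is highest with RX-5902, at a mean of 7.48.

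Across the 12 libraries, with log2 CPM centred within each experiment, SAT1 and SMOX had a Pearson r of 0.97, SMS and OAZ1 0.95 and ODC1 and AMD1 0.94. ODC1 and SAT1 had -0.81. The genes most like ODC1 by this measure, of 9464 compared, were CCDC86 and GRWD1 (both 0.996), GNL3 (0.996), CTPS1 (0.995) and UNG (0.994). UNG, a uracil-removing DNA glycosylase, had log2 changes of -1.41 after knockdown and -2.37 with RX-5902, and GNL3, the nucleolar GTPase nucleostemin, -0.78 and -1.12. CTPS1, a CTP synthase, had -0.53 and -0.70, all called. Most like SAT1 were PRCP (0.994), ZFAND6 (0.993), LILRB4 (0.992), DUSP5 (0.992) and C11orf68 (0.991). LILRB4, an inhibitory receptor of myeloid cells, rose by 1.40 and 0.60, and DUSP5, a phosphatase that acts on ERK, by 1.36 and 0.64. The 12 points are 4 groups of replicates that share group differences and library effects, so these values rank genes and are no test.

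Of 39 other genes around the polyamine pathway, 31 were tested after knockdown, where 7 rose and 13 fell (median log2 change -0.23). With RX-5902 28 were tested, of which 2 rose and 17 fell (median -0.40). The share called, 20 of 31 and 19 of 28, stands beside the backgrounds of 56.7% and 64.1% given above. AZIN2 and AOC1 after knockdown and ARG2 with RX-5902 passed the expression filter through the treated libraries, where they were higher. From their control levels a fall could not have been tested. The gene lists were chosen with earlier results of these data known, so their counts beside the background shares are no test.

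Genes for the supply of arginine and ornithine fell or were not called, apart from ARG2 with RX-5902. ARG2 had only 8 to 10 reads with DMSO and 17 to 20 with RX-5902. It passed the expression filter through the RX-5902 libraries, where it was high, and was not tested after knockdown. After knockdown 3 of 7 tested genes fell and 0 rose (median -0.39), where 28.3% of all tested genes fell, and with RX-5902 6 of 8 fell and 1 rose (median -0.72), where 31.9% of all tested genes fell. ALDH18A1, whose enzyme makes the precursor of proline and ornithine from glutamate, stood at 274.9, 285 and 282 CPM in shControl and at 49.6, 55.1 and 55.4 CPM in shDDX5. With DMSO it stood at 338, 339 and 321 CPM and with RX-5902 at 154, 158 and 158 CPM. Every treated library was far below its controls, with a log2 change of -2.40 (SE 0.09, edgeR adjusted p = 3.44e-06), or 5.26-fold, and of -1.09 (SE 0.04, edgeR adjusted p = 6.11e-22). SLC7A1, a transporter of arginine and ornithine, fell by 0.93 (SE 0.16) and 0.89 (SE 0.04). Its relative SLC7A2 had -0.39 after knockdown, not called (edgeR adjusted p = 0.0757), and fell by 0.97 with RX-5902. The knockdown value was called without shDDX5 replicate 1 (-0.21, edgeR adjusted p = 0.000332) or replicate 2 (-0.52, edgeR adjusted p = 0.0353). ASS1, an enzyme of arginine synthesis, fell by 0.67 and 0.26, and its RX-5902 change was not called against 1.2-fold (edgeR adjusted p = 0.512). Without shDDX5 replicate 1 the knockdown change was -2.35 for ALDH18A1 and -0.75 for SLC7A1.

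In the methionine cycle and salvage route, which provides S-adenosylmethionine and recycles the by-product of spermidine and spermine synthesis, 6 of 9 tested genes fell in each experiment, where 28.3% of all tested genes fell after knockdown and 31.9% with RX-5902. After knockdown 1 rose, with a median of -0.49, and with RX-5902 0 rose, with a median of -0.27. The gene that rose was MRI1, of the salvage route (0.35, edgeR adjusted p = 0.0065). MAT2A, which makes S-adenosylmethionine, stood at 552, 530.1 and 522 CPM in shControl and at 352, 401 and 393 CPM in shDDX5. With DMSO it stood at 669.97, 658 and 630.5 CPM and with RX-5902 at 286, 273 and 273 CPM. The groups were apart in both, and MAT2A fell by 0.49 (SE 0.09, edgeR adjusted p = 0.0018) and by 1.24 (SE 0.04, edgeR adjusted p = 1.81e-23). MTAP, the phosphorylase that clears the by-product methylthioadenosine, fell by 1.15 and 0.85. ENOPH1, a later salvage enzyme, fell by 0.98 and 0.76. MTR, methionine synthase, fell by 2.11 and 0.56. Without shDDX5 replicate 1, where MTR was at 15.4 CPM against 30.8 and 29.7 CPM in the other shDDX5 libraries, its knockdown change was -1.85, and that of MAT2A was -0.43.

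Polyamine transport genes were mixed. Of 7 listed, 3 were tested in each experiment: SLC3A2, ATP13A2 and ATP13A3. SLC3A2, a subunit of amino acid transporters that has been tied to polyamine export, stood at 195, 206 and 217 CPM in shControl and at 326, 273 and 283 CPM in shDDX5. With DMSO it stood at 169.8, 173 and 169 CPM, and with RX-5902 at 88.0, 91.3 and 88.7 CPM. Its groups were apart in opposite directions: it rose by 0.51 (SE 0.10, edgeR adjusted p = 0.00226) and fell by 0.93 (SE 0.04, edgeR adjusted p = 7.62e-20), with a difference of 1.43 (edgeR adjusted p = 1.09e-07). Its knockdown change was 0.43 without shDDX5 replicate 1. ATP13A2, a lysosomal polyamine exporter, fell by 0.36 after knockdown and rose by 0.20 with RX-5902, where its groups overlapped and the change was not called against 1.2-fold (edgeR adjusted p = 0.881). Its knockdown call was lost without shControl replicate 2 or 3 or shDDX5 replicate 2 (-0.31 to -0.34, edgeR adjusted p of 0.0643 to 0.0725). The knockdown change was not called against 1.2-fold either (edgeR adjusted p = 0.139). ATP13A3, a related transporter, rose by 0.47 after knockdown (edgeR adjusted p = 0.0379), though the groups overlapped. The call was lost when any library except shDDX5 replicate 1 was left out (0.34 to 0.47, edgeR adjusted p of 0.104 to 0.121). It was also lost against 1.2-fold (edgeR adjusted p = 0.106). ATP13A3 had 0.04 with RX-5902, not called.

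Spermidine is also used to build hypusine on the translation factor eIF5A. DOHH, the last enzyme of that route, fell by 0.63 and by 0.45. DHPS, the enzyme before it, fell by 0.61 after knockdown and had -0.21 with RX-5902, not called (edgeR adjusted p = 0.0535). The knockdown call of DHPS was lost without shControl replicate 1 (adjusted p = 0.0537), and its RX-5902 value was called without DMSO replicate 3 (adjusted p = 0.0236) or RX-5902 replicate 2 (adjusted p = 0.0478), by edgeR. EIF5A had 0.16 after knockdown, not called (edgeR adjusted p = 0.362), turning to -0.027 without shDDX5 replicate 1, and fell by 0.73 with RX-5902 (edgeR adjusted p = 8.40e-17). In all, 2 of 4 tested genes fell after knockdown and 2 of 3 with RX-5902, and 0 rose. Of all tested genes 28.3% fell and 28.4% rose after knockdown, and 31.9% fell and 32.2% rose with RX-5902. Counts from so few genes say little beside these shares.

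Among 6 further polyamine enzymes and regulators, 3 rose and 0 fell after knockdown, where 28.4% of all tested genes rose and 28.3% fell. All 3 rose from low levels. AZIN2 and AOC1 passed the expression filter through the shDDX5 libraries, where they were high. A fall from their shControl levels could not have been tested, so their place among the 3 is no result beside those shares. SAT2, a relative of SAT1, had 83, 72 and 84 reads in shControl and 258, 214 and 208 in shDDX5, a log2 rise of 1.67 (SE 0.15, edgeR adjusted p = 4.66e-05). AZIN2, another antizyme inhibitor, had 11, 7 and 9 reads in shControl and 62, 49 and 47 in shDDX5, with no fold given because of the filter. AOC1, a diamine oxidase, had 1, 2 and 2 reads in shControl and 21, 20 and 21 in shDDX5, too few in the controls for a fold to be given. With RX-5902 none of these 3 passed the expression filter: SAT2 had 2 to 6 reads with DMSO and 7 to 12 with RX-5902, AZIN2 0 to 2 and 6 to 10, and AOC1 at most 1. OAZ3, HDAC10 and PMF1 were tested in both experiments, and 0 of them were called. Of all tested genes 56.7% were called after knockdown and 64.1% with RX-5902.

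**Figure D5:**
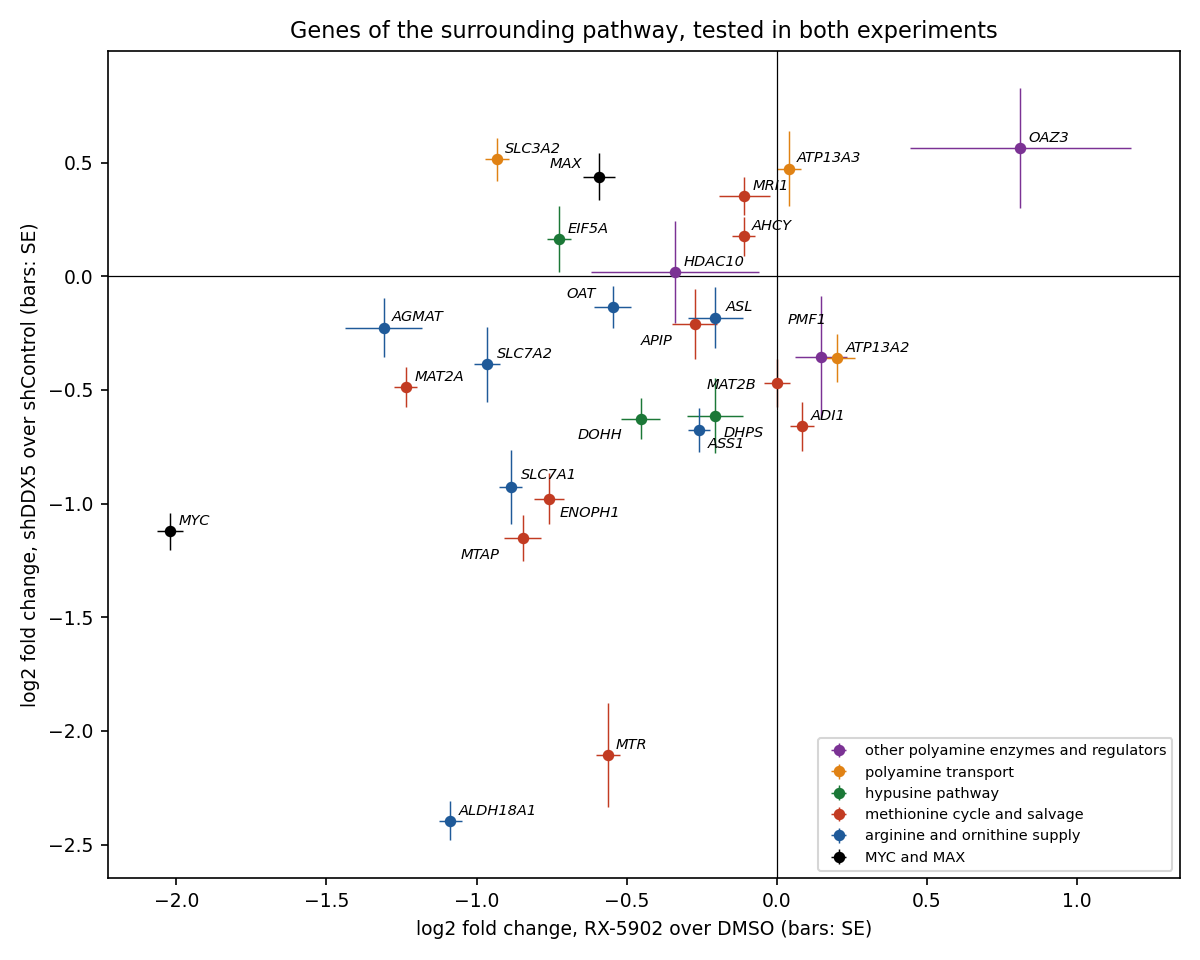
Log2 fold change with RX-5902 (horizontal axis) against that after knockdown (vertical axis) for the 27 genes of the surrounding pathway tested in both experiments, with bars for the standard error and colors for the gene lists. ALDH18A1, MTR, MYC and MTAP lie low and to the left, while SLC3A2 and MAX lie above 0 after knockdown and below 0 with RX-5902.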

How the data were processed

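The authors deposited raw counts of reads per gene without normalization, in 1 table per experiment. Per the submitters' processing notes the build was GRCh38.p13, and the tools were STAR 2.7.9a, Trim Galore 0.6.7, featureCounts (Subread 2.0.3), Picard 2.8.0, DESeq2 1.46.0 and R 4.4.2. Strand setting, annotation release and the treatment of duplicates and of reads with several matches are not given in the sources used here, so reads of overlapping genes may have been mixed or dropped. In each table a gene line wrapped over 3 lines was rejoined. Of 9 processed pseudogenes of the polyamine genes, each had at most 8 counts in a library.

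Each experiment was fitted on its 6 libraries with edgeR 4.0.16 in R 4.3.3 (default expression filter, TMM factors, two-sided quasi-likelihood F test, Benjamini-Hochberg adjustment over all genes tested), and the difference of the changes on all 12 libraries with 4 group means. Standard errors of log2 changes were derived from the F statistic. In data simulated from these libraries, the knockdown fit (14426 genes) recovered 100 of 100 genes changed by 1 on the log2 scale and 39 of 100 changed by 0.5. The RX-5902 fit (13904 genes) recovered 100 and 93, and the fit of the difference (14896 genes) 97 and 23. Only these well-expressed genes were changed, with the same dispersion (spread between replicates) for all genes and no length effect. Far more genes were called in the data, so these figures do not give the power of the reported fits. CPM values are TMM-scaled within each experiment. Per-length levels used the exon lengths of the deposited tables. Coordinates are the outermost exon ends there, on GRCh38, counted from 1.

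The polyamine genes and the lists were chosen with earlier results of these data known. Named were these 10 genes, DDX5, up to 3 called genes of smallest p per list and experiment, and the 5 protein-coding genes (mean of at least 5 CPM) most correlated with ODC1 and with SAT1. Alternatives were DESeq2 1.42.0 with its size factors, RLE factors, other filters, each library left out, a replicate block, a length correction, a test against 1.2-fold and a joint fit of all 12 libraries.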

Additional observations from a re-analysis of the deposited data

Results flagged for a closer look

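For 7 polyamine genes the knockdown change and the RX-5902 change differed by the edgeR test of the difference itself (knockdown minus RX-5902, log2). SRM differed by 1.71 (adjusted p = 7.66e-06), SMOX by 0.99 (adjusted p = 1.40e-05), SAT1 by 0.65 (adjusted p = 0.00168) and ODC1 by 0.39 (adjusted p = 0.0039). OAZ1 differed by -1.74 (adjusted p = 5.15e-06), OAZ2 by -1.12 (adjusted p = 9.09e-06) and SMS by -0.48 (adjusted p = 0.0109). The experiments also differ in duration, 96 against 6 hours, in infection and in starting levels. Those cannot be told apart from the agent.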

How the results depend on the processing

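Over all alternatives, the values of the polyamine genes kept their direction and call in 417 cases, lost a call in 20, gained one in 6 and changed sign in 7. Changes of sign were met in values that were not called as reported. SRM after knockdown ran from -0.17 (without shDDX5 replicate 1) to 0.21 with a library left out, and was -0.14 with a length correction and -0.15 with length correction and replicate block. The AMD1 difference ran from -0.073 (without shDDX5 replicate 1) to 0.022 (without shDDX5 replicate 3), and was 0.20 with the length correction and 0.19 with the block added. EIF5A after knockdown ran from -0.027 (without shDDX5 replicate 1) to 0.26, and ATP13A3 with RX-5902 was -0.051 with the length correction, with or without the block. Against a change of 1.2-fold, RX-5902 called 5190 genes and 3 polyamine genes (ODC1, SRM and SAT1). Leaving out a library gave 6676 to 10645 called genes after knockdown, 8413 to 8691 with RX-5902 and 7461 to 9537 for the difference, with 6 to 9, 8 to 9 and 7 to 7 polyamine genes. Same-numbered libraries did not deviate together (r from -0.074 to 0.035, and -0.025 to 0.079 for other pairs). This check, on deviations from means of 3 libraries, cannot exclude that the libraries were paired. With a replicate block, 7592, 8696 and 7626 genes and 7, 9 and 7 polyamine genes were called. AMD1 after knockdown and AZIN1 in both experiments crossed the threshold under several alternatives, and ATP13A3 after knockdown lost its call with the block (0.44, adjusted p = 0.0519). Low counts limit PAOX, AOC1 and AZIN2 in both experiments and SAT2 in the RX-5902 experiment. The causes were not tested.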
